A study of Mus musculus with 6 samples.

Results

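Synaptic adhesion molecules are cell surface proteins that join the presynaptic and postsynaptic membranes and recruit the release and receptor machinery on either side of the cleft. The genes described here are 39 members of 12 such families, taken by symbol from the deposited table after its Ensembl identifiers had been matched to GENCODE release M21. Each symbol matched 1 of the 55401 gene rows, and all 39 passed the filter on low counts, among 19844 genes tested. The rule for members uses family and symbol, and the families were chosen with earlier results of these data known.

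Presynaptic terminals carry hub receptors, the neurexins and the LAR-type receptor tyrosine phosphatases, which bind many postsynaptic partners. Neuroligins and LRRTM proteins bind neurexins, while SLITRK proteins, some LRFN (also called SALM) proteins and IL1RAPL1 bind the phosphatases. Latrophilins, which are adhesion G protein-coupled receptors, bind teneurins and FLRT proteins, and this set works both in axon guidance and at synapses. CADM (SynCAM) proteins bind each other and stand on both membranes. In the late embryonic cortex most of these genes are already transcribed, while synapses are still sparse.

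The samples were cerebral cortex of C57BL/6 mouse embryos at embryonic day 18, in 3 Csmd3-/- libraries (named HOMO in the labels, with the genotype Csmd3 knockout) and 3 wild-type (WT) libraries. Embryos came from matings between Csmd3 heterozygotes. Neither the removed part of Csmd3 nor the number of embryos behind a library is stated in the labels, so p-values measure the spread between these libraries, which may be partly technical. The design asks which cortical transcripts differ when Csmd3, which encodes a very large transmembrane protein built of CUB and Sushi repeats, is disrupted.

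Deposited totals ran from 54244288 to 68269607 counts in knockout and from 57531791 to 60716370 in WT libraries. Low values piled up at 4, with fewer genes at 3 or 5 in each library. Many fragments may thus have been entered about 4 times over, so the counting precision may be nearer that of the count divided by 4. Csmd3 itself stood at 9.82, 10.3 and 9.8 CPM (the usual depth-scaled count, with library sizes adjusted by TMM) in the knockout libraries, against 16.6, 13.2 and 15.1 CPM in WT libraries (log2 fold change -0.59, SE 0.13, adjusted p = 0.0233). Since the removed part is not stated, the count of the whole gene checks the labels only in part. Omitting WT library 1, or one knockout library, lost that call (adjusted p up to 0.101). The dissected tissue was neuronal in all libraries, with the 20 pan-neuronal genes summing to 8854 to 10162 CPM in the knockout libraries and 11323 to 13418 CPM in WT libraries. These sums include Mapt, at 321 CPM in knockout library 3 against 1384 and 1294 CPM in knockout libraries 1 and 2. They also include Map2, which ran from 515 to 1163 CPM in WT libraries, and neither gene passed. Markers of other cells moved with genotype, and their values are given after the members.

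Of the 39 members, 12 were lower and 1 was higher in knockout cortex at an adjusted p under 0.05. The genes that fell were the neurexin Nrxn2, the SLITRK gene Slitrk5, the LRFN genes Lrfn1, Lrfn2, Lrfn4 and Lrfn5, the calsyntenins Clstn1 and Clstn3, the latrophilin Adgrl3, the teneurins Tenm1 and Tenm3, and Cadm3. Nlgn2, the neuroligin of inhibitory synapses, rose. The falls were modest, with log2 fold changes from -0.86 for Lrfn2 to -0.26 for Lrfn5, so that the fitted level fell by 45% for Lrfn2 and fell by 16.3% for Lrfn5.

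The lower calls made up 30.8% of the members, against 2.53% of all tested genes that were lower and 5.21% that were higher. Because members are well expressed, the lower calls were also counted among the 12876 tested genes with a mean of at least 3.23 CPM, the level of the lowest member, and came to 3.58% there, beside 5.97% that were higher. In 16 members every knockout library lay below every WT library, and in 2 every knockout library lay above, where 13.5% and 15.6% of all tested genes did so. The median log2 fold change over members was -0.24, against 0.002 over all tested genes and -0.35 over the 20 pan-neuronal genes. In bulk tissue, fewer cells of a type and less RNA per cell cannot be told apart.

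**Figure D1:**
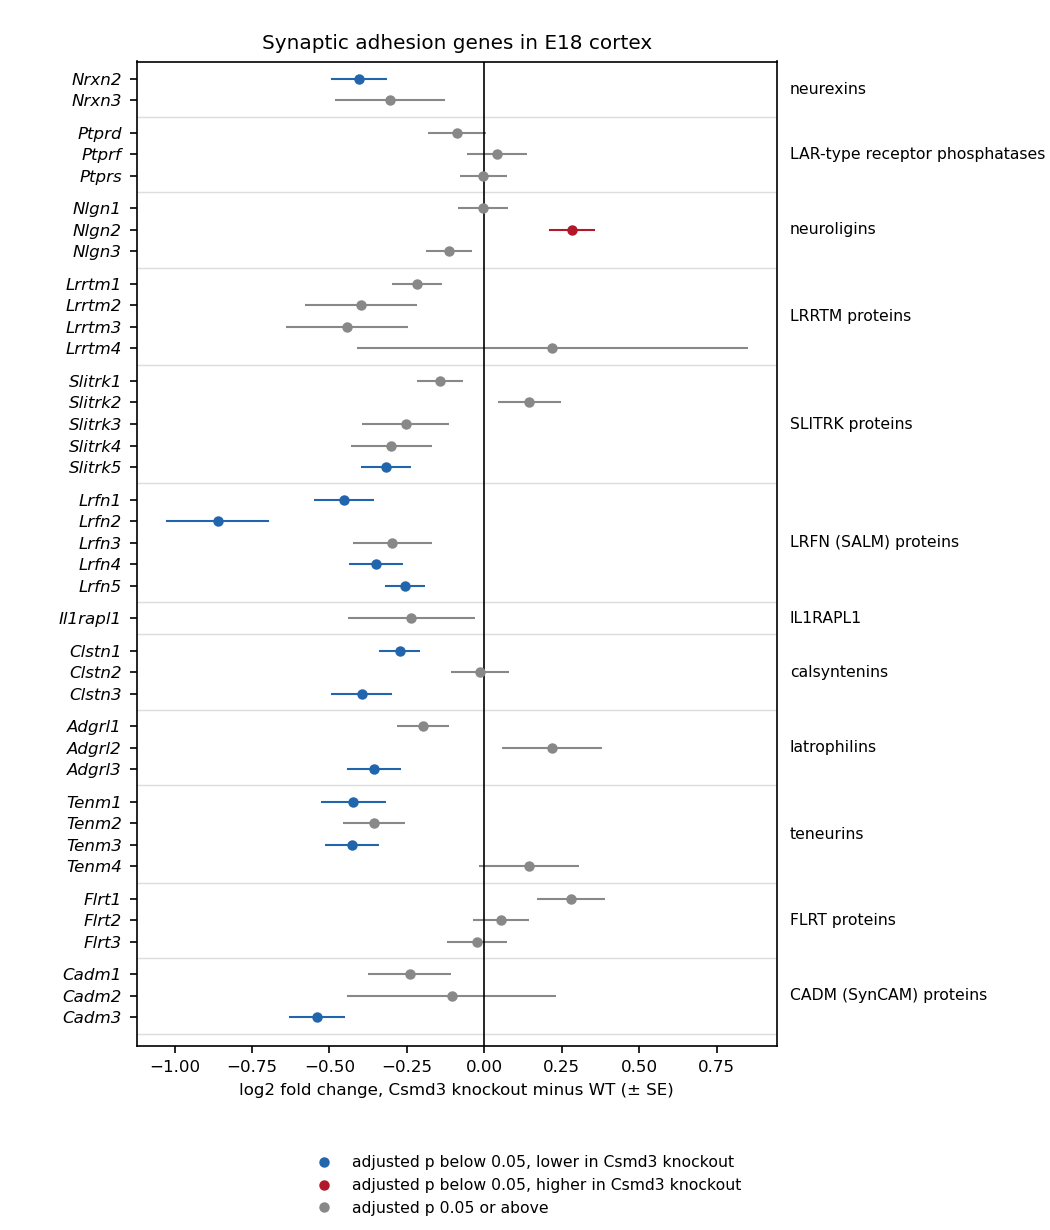
Log2 fold change of each of the 39 members, knockout minus WT, with its SE as a horizontal bar and members grouped by family. Blue points passed the threshold as lower (12 members), the red point as higher (Nlgn2), and grey points did not pass. The 5 LRFN genes all lie left of 0.

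Among presynaptic receptors, Nrxn2 fell and the 3 LAR-type phosphatases did not pass the test. Nrxn2 (ENSMUSG00000033768.17, chromosome 19, 6418731 to 6544169, plus strand, mm10) encodes a neurexin, whose long and short forms arise from separate promoters and are not resolved by gene counts. Its level was 299.6, 264 and 280.1 CPM in the knockout libraries, against 388, 403 and 325 CPM in WT libraries. No knockout library reached the lowest WT library (log2 fold change -0.40, SE 0.091, adjusted p = 0.0268). The call held without WT library 3 and was lost without any other single library (highest adjusted p = 0.122), with log2 fold changes of -0.49 to -0.34. Nrxn3, another neurexin, had 30.3, 19 and 22.7 CPM in the knockout libraries, against 30.6, 25.1 and 33.3 CPM in WT libraries. Its groups overlapped (log2 fold change -0.30, SE 0.18, adjusted p = 0.371). Per kilobase of annotated exon, the mean Nrxn2 level was 20.4 in knockout and 26.9 in WT, and that of Nrxn3 1.91 in knockout and 2.35 in WT.

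The phosphatases Ptprd, Ptprf and Ptprs organise presynaptic terminals and also steer growing axons. Ptprs, the most abundant of them per kilobase of exon, averaged 1331 ± 98.4 CPM in knockout and 1334 ± 73.1 CPM in WT (SD, n = 3 each). Its log2 fold change was -0.0034 with an SE of 0.076 (adjusted p = 0.988), which turned to 0.0024 under upper-quartile scaling. Ptprd had 352 ± 6.9 CPM in knockout and 374 ± 50.2 CPM in WT (SD, n = 3 each), and Ptprf 252 ± 14.2 CPM in knockout and 244 ± 32 CPM in WT (SD, n = 3 each). All 3 had groups that overlapped, and their log2 fold changes lay between -0.088 and 0.041, each within 1 SE of 0.

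The LRFN family held the most members that fell, 4 of 5, and the largest change. LRFN proteins are postsynaptic leucine-rich repeat proteins, several of which bind the scaffold PSD-95 inside the cell. Lrfn2 (ENSMUSG00000040490.4, chromosome 17, 48932379 to 49097588, plus strand, mm10), which also associates with NMDA receptors, had 11.7, 9.42 and 9.85 CPM in the knockout libraries, against 19.5, 22.1 and 14.6 CPM in WT libraries. The highest knockout library stayed under the lowest WT library (log2 fold change -0.86, SE 0.17, adjusted p = 0.0151), from 546 to 804 deposited counts in knockout and 838 to 1285 in WT. Lrfn1 stood at 80.4, 69.4 and 71.5 CPM in the knockout libraries, against 108, 107 and 88.7 CPM in WT libraries. These groups did not overlap either (log2 fold change -0.45, SE 0.10, adjusted p = 0.0216). Both calls held without knockout library 1 or WT library 3 and were lost without any other single library (highest adjusted p = 0.0772 for Lrfn2 and 0.107 for Lrfn1), with log2 fold changes of -1.01 to -0.72 and -0.54 to -0.40.

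Lrfn4, the most abundant LRFN gene per kilobase of exon, had 132, 128 and 122 CPM in the knockout libraries, against 168, 177 and 143 CPM in WT libraries. Every knockout value was below every WT value (log2 fold change -0.35, SE 0.087, adjusted p = 0.0415). Lrfn5, whose protein binds LAR-type phosphatases, was at 85.8, 88.6 and 87.4 CPM in the knockout libraries, against 101, 106 and 106 CPM in WT libraries. Both groups were tight and stood apart (log2 fold change -0.26, SE 0.065, adjusted p = 0.0437). Lrfn3 had 47.8, 43.8 and 38.3 CPM in the knockout libraries, against 56.2, 59.7 and 43.7 CPM in WT libraries, with knockout libraries 1 and 2 above WT library 3, and did not pass (log2 fold change -0.30, SE 0.13, adjusted p = 0.212). Without WT library 3, Lrfn4 kept its call and Lrfn3 passed (adjusted p = 0.0375), while any other omission lost Lrfn4 (highest adjusted p = 0.171). The Lrfn5 call was lost under each of the 6 omissions (adjusted p up to 0.163), with a log2 fold change between -0.29 and -0.24, and with no filter on low counts (adjusted p = 0.0641). The lowest WT value was that of WT library 3 for Lrfn1, Lrfn2, Lrfn3 and Lrfn4.

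Calsyntenins are postsynaptic cadherin-type proteins, and Clstn1 also links cargo vesicles to kinesin in axons. Clstn1 (ENSMUSG00000039953.13, chromosome 4, 149586468 to 149648899, plus strand, mm10) was at 557, 535 and 520.0 CPM in the knockout libraries, against 675, 655 and 619 CPM in WT libraries. It fell with no overlap between groups (log2 fold change -0.27, SE 0.065, adjusted p = 0.0334). Clstn3, which promotes synapse formation and binds neurexins, had 79.6, 76.5 and 73.5 CPM in the knockout libraries, against 112, 104 and 86.3 CPM in WT libraries. Its knockout libraries lay close together and below all WT libraries (log2 fold change -0.40, SE 0.10, adjusted p = 0.0407). Both calls held without WT library 3 and were lost without any other single library (highest adjusted p = 0.16 and 0.161), with log2 fold changes of -0.31 to -0.25 for Clstn1 and -0.50 to -0.33 for Clstn3. Clstn2, by contrast, averaged 259 ± 9.71 CPM in knockout and 261 ± 33 CPM in WT (SD, n = 3 each), and its groups overlapped (log2 fold change -0.013, SE 0.093, adjusted p = 0.956).

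Neuroligins, the classical postsynaptic ligands of neurexins, did not share a direction. Nlgn2 (ENSMUSG00000051790.15, chromosome 11, 69823122 to 69837784, minus strand, mm10), whose protein sits at inhibitory synapses, had 421, 409.6 and 389.8 CPM in the knockout libraries, against 357, 338 and 309 CPM in WT libraries. All knockout libraries were above all WT libraries (log2 fold change 0.28, SE 0.073, adjusted p = 0.0459). This call was lost under each of the 6 omissions (adjusted p up to 0.162, log2 fold change 0.23 to 0.32) and also with RLE scaling, where its adjusted p was 0.0515. Nlgn1, the neuroligin of excitatory synapses, averaged 68 ± 5.28 CPM in knockout and 68.2 ± 1.9 CPM in WT (SD, n = 3 each) (log2 fold change -0.0051, SE 0.08, adjusted p = 0.982), a difference near 0 whose sign turned under upper-quartile scaling. Nlgn3, found at both kinds of synapse, averaged 136 ± 8.31 CPM in knockout and 148 ± 8.44 CPM in WT (SD, n = 3 each) (log2 fold change -0.12, SE 0.074, adjusted p = 0.424). Within the summed neuroligin level per kilobase of exon, Nlgn2 took 78.6, 78.8 and 76.8% in the knockout libraries, against 73.6, 74.2 and 72.1% in WT libraries. Nlgn3 took 15.5, 15.6 and 17.9% in the knockout libraries, against 20.3, 19.5 and 20.9% in WT libraries. For both, the shares of the groups did not overlap. Shares of the same sum are tied, so a larger Nlgn2 share leaves less for the others. The Nlgn1 share was also lower, at 5.62% in knockout and 6.47% in WT, though its level differed little. By level, the groups of Nlgn3 overlapped.

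SLITRK proteins are postsynaptic partners of the LAR-type phosphatases. Slitrk5 (ENSMUSG00000033214.10, chromosome 14, 111675097 to 111683141, plus strand, mm10) was at 49.3, 50.4 and 47.3 CPM in the knockout libraries, against 64.3, 56.6 and 62.2 CPM in WT libraries. Its groups stood apart (log2 fold change -0.32, SE 0.08, adjusted p = 0.042). Its call held without WT library 2 and was lost without any other single library (highest adjusted p = 0.17, log2 fold change -0.37 to -0.29) or with no filter on low counts. Slitrk1, the most abundant of the family per kilobase, had 69.4, 68.8 and 66.2 CPM in the knockout libraries, against 79.7, 74.6 and 71.3 CPM in WT libraries. Its groups narrowly missed overlapping, and the gene did not pass (log2 fold change -0.14, SE 0.074, adjusted p = 0.305). Slitrk4 likewise had groups apart, with 8.51, 8.52 and 8.57 CPM in the knockout libraries, against 10.3, 9.56 and 11.7 CPM in WT libraries (log2 fold change -0.30, SE 0.13, adjusted p = 0.213). Slitrk3 (log2 fold change -0.25, SE 0.14, adjusted p = 0.343) and Slitrk2 (log2 fold change 0.15, SE 0.10, adjusted p = 0.464) overlapped.

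None of the 4 LRRTM genes, postsynaptic ligands of neurexins at excitatory synapses, passed edgeR's test, where Lrrtm1 and Lrrtm3 had an unadjusted p under 0.05, and none was called under any other setting. Lrrtm1 came nearest, with 63.4, 62.2 and 63.9 CPM in the knockout libraries, against 80.2, 69.4 and 70.7 CPM in WT libraries. Its knockout libraries were all below WT (log2 fold change -0.22, SE 0.08, adjusted p = 0.143). Lrrtm2 (log2 fold change -0.40, SE 0.18, adjusted p = 0.246) and Lrrtm3 (log2 fold change -0.44, SE 0.20, adjusted p = 0.223) had groups that overlapped. Lrrtm4 had the largest SE of the members, with 5.02, 16.4 and 18.5 CPM in the knockout libraries, against 18.2, 7.41 and 8.66 CPM in WT libraries, and high and low libraries occurred in both groups (log2 fold change 0.22, SE 0.63, adjusted p = 0.888). Il1rapl1, a partner of Ptprd and a gene of X-linked intellectual disability in humans, had the lowest mean CPM of the members, with 2.74, 3.14 and 3.03 CPM in the knockout libraries, against 4.1, 2.91 and 3.47 CPM in WT libraries. It rested on 168 to 199 deposited counts in knockout and 169 to 245 in WT, and its groups overlapped (log2 fold change -0.24, SE 0.20, adjusted p = 0.57).

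In the latrophilin complex, Adgrl3, Tenm1 and Tenm3 fell, while the 3 FLRT genes did not pass. Adgrl3 (ENSMUSG00000037605.16, chromosome 5, 81020138 to 81825133, plus strand, mm10), a postsynaptic receptor for FLRT3 and teneurins, had 77.9, 76.4 and 91.2 CPM in the knockout libraries, against 111, 99.3 and 104 CPM in WT libraries. Knockout library 3 was the highest of its group and still below each WT library (log2 fold change -0.36, SE 0.088, adjusted p = 0.0387). That call held without knockout library 3 or WT library 3 and was lost without any other single library (highest adjusted p = 0.167, log2 fold change -0.44 to -0.30). Adgrl1, the most abundant latrophilin per kilobase of exon, was at 685, 770.2 and 660.2 CPM in the knockout libraries, against 872, 806 and 747 CPM in WT libraries. Knockout library 2 exceeded WT library 3, and the gene did not pass (log2 fold change -0.20, SE 0.083, adjusted p = 0.202). Adgrl2 had 381, 329 and 369.6 CPM in the knockout libraries, against 354, 231 and 343 CPM in WT libraries, with WT library 2 far below the rest (log2 fold change 0.22, SE 0.16, adjusted p = 0.502).

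Teneurins are very large transmembrane proteins that help match partner neurons during wiring. Tenm3 (ENSMUSG00000031561.16, chromosome 8, 48227682 to 48843951, minus strand, mm10) had 275, 289.7 and 305 CPM in the knockout libraries, against 428, 344 and 397 CPM in WT libraries. The groups were separate (log2 fold change -0.43, SE 0.088, adjusted p = 0.0186). Tenm1, an X-linked gene, was at 31.4, 33.5 and 34.7 CPM in the knockout libraries, against 50.8, 39.9 and 42.8 CPM in WT libraries. Its groups were separate too (log2 fold change -0.42, SE 0.11, adjusted p = 0.0411). Both calls held without WT library 2 or WT library 3 and were lost without WT library 1 or one of the knockout libraries (highest adjusted p = 0.0902 for Tenm3 and 0.152 for Tenm1), with log2 fold changes of -0.51 to -0.37 and -0.50 to -0.33. Tenm2 stood at 308, 272 and 304 CPM in the knockout libraries, against 425, 323 and 382 CPM in WT libraries. Its groups did not overlap but it missed the threshold (log2 fold change -0.36, SE 0.10, adjusted p = 0.0646). Tenm2 passed with DESeq2, limma-voom, counts divided by 4 and the replicate block, and without WT library 2 (adjusted p = 0.0219). Tenm4 differed in sign, at 295, 291 and 330.4 CPM in the knockout libraries, against 277, 212 and 339.5 CPM in WT libraries, with a wide WT group (log2 fold change 0.14, SE 0.16, adjusted p = 0.681).

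FLRT proteins bind latrophilins and also the repulsive UNC5 receptors. Flrt1 had 36.2, 34.3 and 35.1 CPM in the knockout libraries, against 33.5, 25.9 and 27.6 CPM in WT libraries. Its knockout libraries were all above WT, though narrowly at the nearest pair, and it did not pass (log2 fold change 0.28, SE 0.11, adjusted p = 0.172). Flrt2 averaged 123 ± 10.1 CPM in knockout and 118 ± 10.8 CPM in WT (SD, n = 3 each) and Flrt3 61.2 ± 7.38 CPM in knockout and 62.2 ± 2.17 CPM in WT (SD, n = 3 each), and both overlapped.

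Cadm3 had the smallest adjusted p of the 39 members. Cadm3 (ENSMUSG00000005338.13, chromosome 1, 173333258 to 173367695, minus strand, mm10) encodes a neuronal member of the immunoglobulin superfamily that binds other CADM proteins across axons and glia or between neurons. Its level was 156, 176 and 147 CPM in the knockout libraries, against 250.1, 237 and 211 CPM in WT libraries. The highest knockout library lay well below the lowest WT library (log2 fold change -0.54, SE 0.09, adjusted p = 0.00798). It was the sole member called under all 6 omissions of a library (highest adjusted p = 0.0472), with log2 fold changes of -0.61 to -0.48. Cadm1 was at 99.8, 93.7 and 107 CPM in the knockout libraries, against 141, 119 and 94.8 CPM in WT libraries, with WT library 3 among the knockout values (log2 fold change -0.24, SE 0.13, adjusted p = 0.347), and passed without WT library 3 (adjusted p = 0.0369). Cadm2 had 55.7, 81.6 and 83.3 CPM in the knockout libraries, against 97.5, 47.1 and 92.9 CPM in WT libraries. WT library 2 was its lowest value and WT library 1 its highest, so no direction could be read (log2 fold change -0.11, SE 0.34, adjusted p = 0.9).

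**Figure D2:**
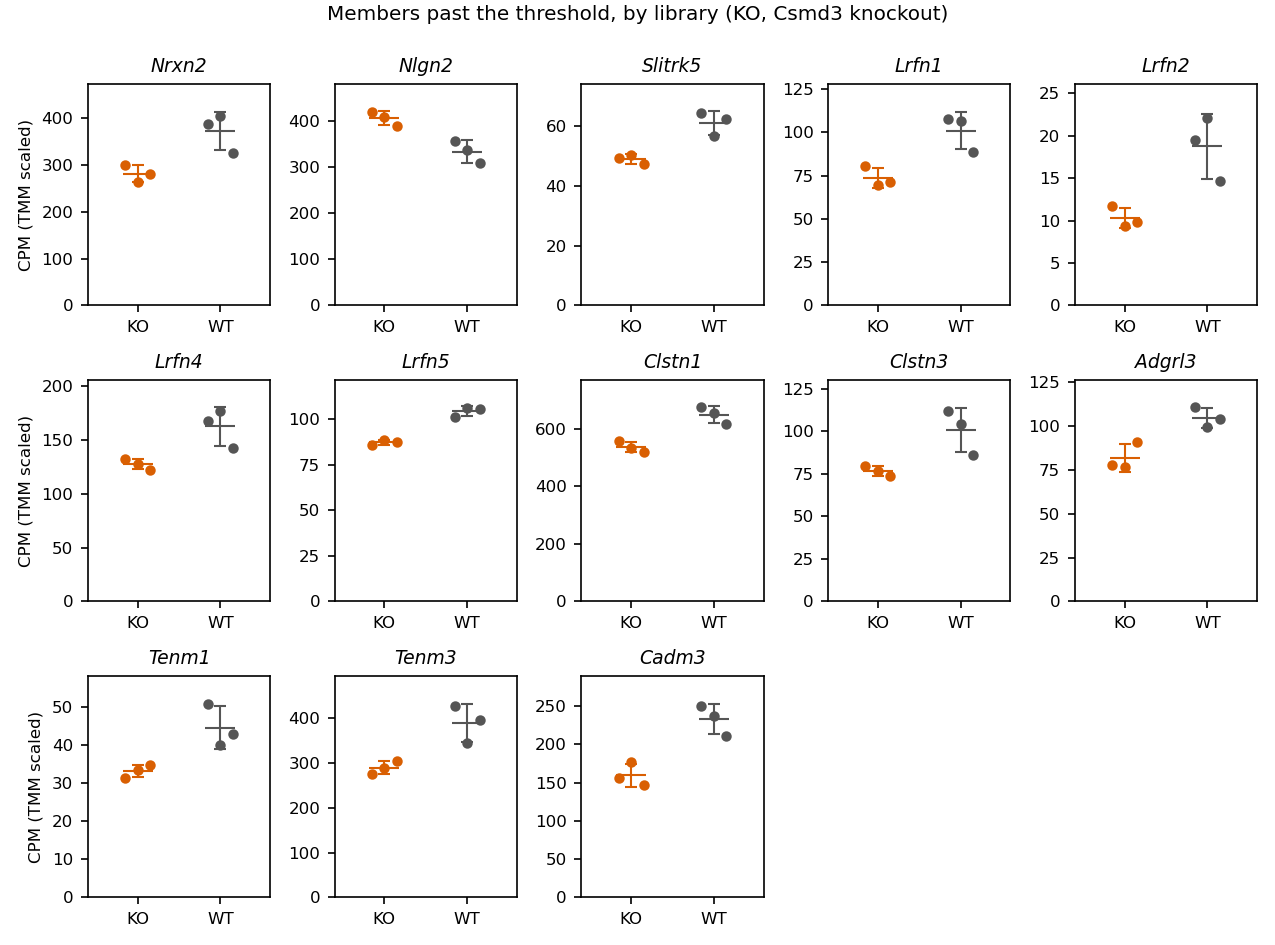
CPM of the 13 members past the threshold in each library, with knockout (KO, orange) left of WT (grey); the cross bar is the group mean and the whiskers its SD (n = 3 each). In all 13 panels the groups do not overlap, and Nlgn2 alone is higher in knockout.

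Promoter sequences are shown for members that share a motif and for the most stable and the single upward call. RefSeq windows (GRCm38.p6, 250 bases before to 50 after the start) were found for 30 of the 39 members, in 40 entries, and the first listed of each gene was counted. The cyclic AMP response element TGACGTCA, a palindrome read the same on both strands, was present in 4 of these 30 windows (13.3%), those of Ptprs, Clstn2, Clstn3 and Tenm3, and in 1.88% of the first-listed windows of 27025 genes. Member windows were also richer in CG dinucleotides, with a median of 12 against 7, a dinucleotide that the motif contains. The motif began 63 bases before the start in Tenm3, 85 before it in Clstn2, 1 before it in Clstn3 and 5 after it in Ptprs. The Tenm3 window lies inside the annotated gene, which begins at 48843951 on the minus strand, so its start is an internal one. The windows of Clstn2, Clstn3 and Ptprs span the annotated start of the gene. Among these 4, 2 genes fell and 2 had groups that overlapped. Outside this count, a second listed window of Slitrk2, whose groups overlapped, held the motif 197 bases before its start. The GC box GGGCGG (or CCGCCC) was in 11 member windows (36.7%) and 35.9% of all, the TATA box TATAAA (either strand) in 3 (10%) and 14.2%, and the E-box CANNTG in 22 (73.3%) and 72.1%. In the windows below, capitals mark TGACGTCA, and those of Cadm3 and Nlgn2 hold none.
Tenm3 promoter, chr8:48674641-48674940, minus strand: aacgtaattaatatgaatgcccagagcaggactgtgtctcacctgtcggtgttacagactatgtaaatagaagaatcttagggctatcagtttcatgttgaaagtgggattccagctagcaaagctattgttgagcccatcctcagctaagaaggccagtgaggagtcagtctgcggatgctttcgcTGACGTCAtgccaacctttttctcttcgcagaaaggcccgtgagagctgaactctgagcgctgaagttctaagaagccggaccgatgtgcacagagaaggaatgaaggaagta
Clstn3 promoter, chr6:124464735-124465034, minus strand: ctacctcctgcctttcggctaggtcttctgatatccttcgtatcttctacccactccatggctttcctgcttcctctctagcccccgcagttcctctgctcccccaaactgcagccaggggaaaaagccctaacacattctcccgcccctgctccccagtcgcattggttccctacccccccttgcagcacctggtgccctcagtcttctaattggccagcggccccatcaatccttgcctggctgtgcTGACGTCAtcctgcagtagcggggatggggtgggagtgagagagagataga
Clstn2 promoter, chr9:98033118-98033417, minus strand: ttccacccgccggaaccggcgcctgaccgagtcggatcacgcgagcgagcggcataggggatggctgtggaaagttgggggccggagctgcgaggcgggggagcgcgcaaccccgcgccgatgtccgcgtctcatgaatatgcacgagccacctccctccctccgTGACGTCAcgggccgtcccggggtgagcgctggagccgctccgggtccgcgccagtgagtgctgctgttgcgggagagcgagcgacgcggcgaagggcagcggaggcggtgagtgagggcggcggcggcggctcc
Ptprs promoter, chr17:56476431-56476730, minus strand: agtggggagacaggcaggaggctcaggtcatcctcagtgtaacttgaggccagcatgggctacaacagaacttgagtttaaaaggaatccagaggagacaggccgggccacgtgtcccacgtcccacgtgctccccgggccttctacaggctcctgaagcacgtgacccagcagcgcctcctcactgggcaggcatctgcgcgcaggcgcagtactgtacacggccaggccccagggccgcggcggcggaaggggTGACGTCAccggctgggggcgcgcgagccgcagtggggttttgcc
Cadm3 promoter, chr1:173367646-173367945, minus strand: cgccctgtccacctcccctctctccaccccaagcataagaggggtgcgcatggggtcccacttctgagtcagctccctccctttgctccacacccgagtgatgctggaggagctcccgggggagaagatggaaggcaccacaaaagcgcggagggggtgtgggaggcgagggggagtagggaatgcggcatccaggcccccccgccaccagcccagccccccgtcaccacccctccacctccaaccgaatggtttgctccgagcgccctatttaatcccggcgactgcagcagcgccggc
Nlgn2 promoter, chr11:69837735-69838034, minus strand: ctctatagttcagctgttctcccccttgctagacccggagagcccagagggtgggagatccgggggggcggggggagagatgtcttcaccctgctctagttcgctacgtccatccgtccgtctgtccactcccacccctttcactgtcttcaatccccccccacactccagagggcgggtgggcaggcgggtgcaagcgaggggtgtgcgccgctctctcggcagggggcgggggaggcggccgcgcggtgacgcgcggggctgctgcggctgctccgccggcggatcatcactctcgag

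Summed over the listed members of a family, the difference was largest in percent for the CADM, neurexin, LRFN and teneurin genes. The CADM sum leaves out Cadm4, which is counted below among the secreted and membrane partners. Cadm4 averaged 406 ± 24.2 CPM in knockout and 501 ± 44.3 CPM in WT (SD, n = 3 each), more than any CADM member. It did not pass (log2 fold change -0.30, SE 0.081, adjusted p = 0.054). The summed level, in CPM per kilobase of exon, was 22.3 ± 1.75 in knockout and 29.3 ± 2.69 in WT (SD, n = 3 each) for the neurexins. It was 84.1 ± 4.56 in knockout and 109 ± 11.9 in WT (SD, n = 3 each) for the LRFN genes and 39.1 ± 2.44 in knockout and 51.5 ± 5.63 in WT (SD, n = 3 each) for the CADM genes. For teneurins it was 70.4 ± 3.18 in knockout and 86.6 ± 11 in WT (SD, n = 3 each), for calsyntenins 176 ± 6.26 in knockout and 206 ± 8.31 in WT (SD, n = 3 each), for LRRTM genes 31.1 ± 2.11 in knockout and 36.9 ± 3.5 in WT (SD, n = 3 each) and for SLITRK genes 32.7 ± 0.0744 in knockout and 37 ± 2.36 in WT (SD, n = 3 each). Some of these sums rest largely on a single gene, with Nrxn2 at 91.9% of the neurexin sum and Lrrtm1 at 65.6% of the LRRTM sum in WT. In each of these 7 families every knockout library was below every WT library. By single gene level, that held for 13.5% of all tested genes, and the reverse for 15.6%. The neuroligin sum alone went the other way, at 90.1 ± 2.48 in knockout and 78.8 ± 4.89 in WT (SD, n = 3 each), with all knockout libraries higher. Latrophilins (112 ± 4.68 in knockout and 122 ± 9.45 in WT (SD, n = 3 each)), FLRT genes (34.5 ± 2.67 in knockout and 33 ± 2.25 in WT (SD, n = 3 each)) and LAR-type phosphatases (132 ± 7.44 in knockout and 132 ± 8.25 in WT (SD, n = 3 each)) overlapped. With 3 libraries a group, an exact permutation test of a single sum cannot go below p = 0.1, so these sums are given as descriptions.

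**Figure D3:**
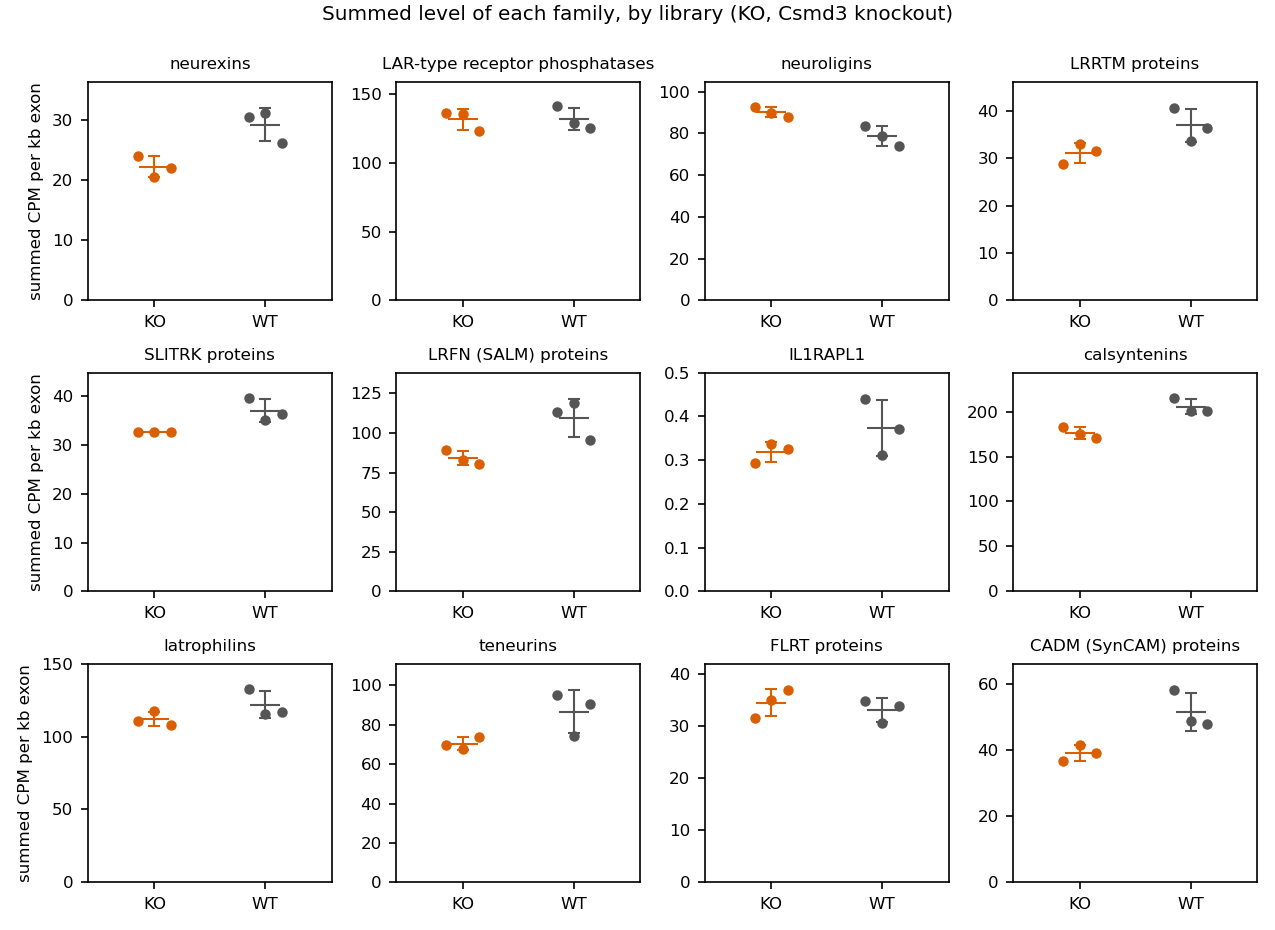
Summed CPM per kilobase of exon for the listed members of each of the 12 families in each library, with knockout (KO, orange) left of WT (grey). The cross bar is the mean and the whiskers the SD (n = 3 each). LRFN genes average 84.1 in knockout and 109 in WT, and neuroligins 90.1 in knockout and 78.8 in WT.

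The share of single members in their family's sum is given as a description, with no test. Lrfn2 took 4.1, 3.54 and 3.84% in the knockout libraries, against 5.37, 5.83 and 4.77% in WT libraries of the LRFN sum. Tenm3 took 40.2% ± 1.56 in knockout and 44.1% ± 1.26 in WT (SD, n = 3 each) of the teneurin sum, and Tenm4 took 20.6% ± 0.563 in knockout and 15.1% ± 2.34 in WT (SD, n = 3 each). The groups did not overlap for these 3 shares. Slitrk5 took 28.5% ± 0.955 in knockout and 31.3% ± 1.08 in WT (SD, n = 3 each) of the SLITRK sum and Slitrk2 14.2% ± 0.687 in knockout and 11.3% ± 1.19 in WT (SD, n = 3 each), again without overlap. The shares of Nlgn1, Clstn1, Clstn2 and Cadm3 also did not overlap, with Cadm3 at 56.3% ± 3.77 in knockout and 62.5% ± 3.84 in WT (SD, n = 3 each) of the CADM sum, which leaves out Cadm4. By level, 13.5% of all tested genes had every knockout library lower than every WT library, and 15.6% had every one higher. Of the shares, 11 of 38 had groups apart in either direction, and shares of the same sum are tied together. Nrxn2 took 91.5% ± 1.37 in knockout and 91.9% ± 1.86 in WT (SD, n = 3 each) of the neurexin sum and Ptprs 67.4% ± 1.33 in knockout and 67.4% ± 1.67 in WT (SD, n = 3 each) of the phosphatase sum, and those groups overlapped. The shares depend on exon lengths merged over all annotated transcripts, and levels between genes hold only to that extent.

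**Figure D4:**
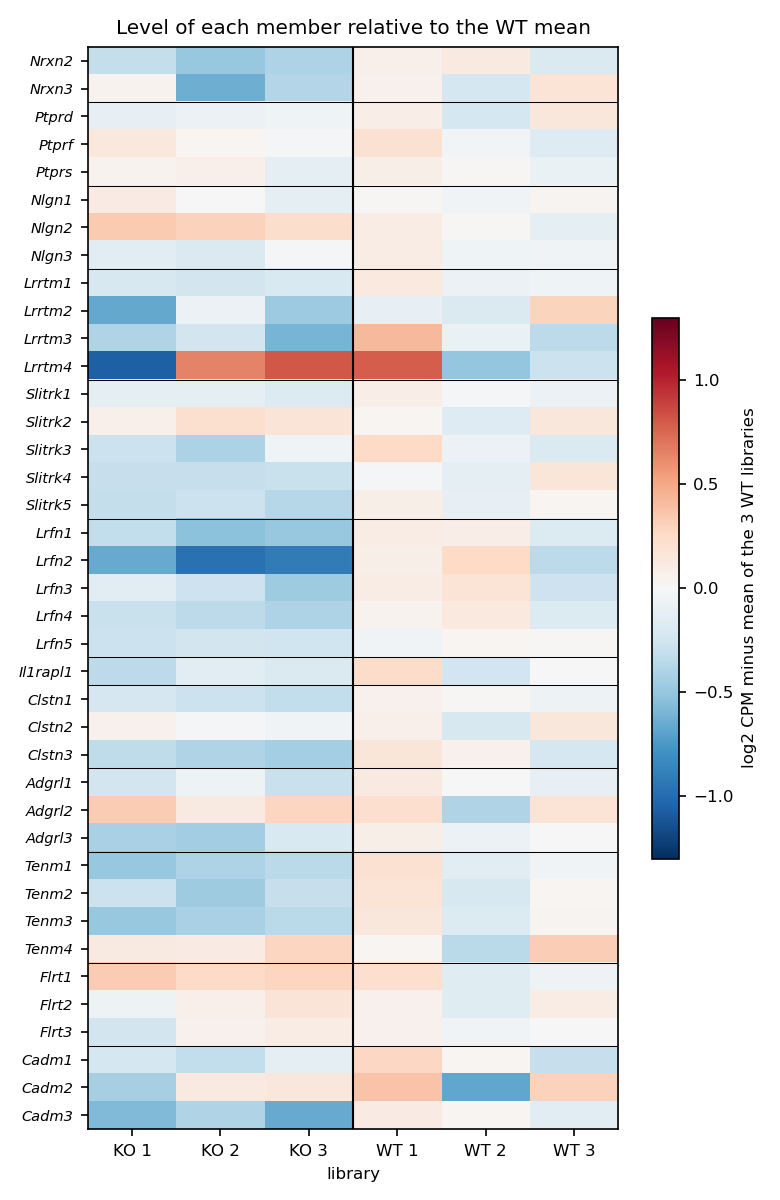
Log2 CPM of each member in each library minus the mean of the 3 WT libraries, knockout (KO) libraries left of WT, with lines between families. The LRFN block and Cadm3 are below 0 in all 3 knockout libraries, and Lrrtm4 runs from -1.06 in knockout library 1 to 0.81 in knockout library 3.

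Secreted and membrane partners of these receptors mostly moved the same way where they passed. Of 29 tested partners (C1ql2 was below the filter), 6 fell and 1 rose, with a median log2 fold change of -0.30. Over all tested genes, 2.53% were called lower and 5.21% higher. Unc5c, a netrin receptor that FLRT proteins also bind, was at 20.3, 17.6 and 20.3 CPM in the knockout libraries, against 34.3, 27.9 and 30 CPM in WT libraries (log2 fold change -0.66, SE 0.11, adjusted p = 0.00941). It kept its call under all 6 omissions. Cbln1, a secreted bridge between neurexins and glutamate delta receptors, had 22.4, 22.5 and 19.1 CPM in the knockout libraries, against 37.8, 33.8 and 30.1 CPM in WT libraries (log2 fold change -0.67, SE 0.12, adjusted p = 0.00979), lost without knockout library 3 (adjusted p = 0.0534). Ntng1, a netrin-G that binds a leucine-rich repeat ligand, was scarce, at 3.84 ± 0.423 CPM in knockout and 7.57 ± 1.51 CPM in WT (SD, n = 3 each) (log2 fold change -0.98, SE 0.19, adjusted p = 0.0156). Nxph1, a secreted neurexin ligand, averaged 15.9 ± 0.513 CPM in knockout and 24.5 ± 3.55 CPM in WT (SD, n = 3 each) (log2 fold change -0.62, SE 0.12, adjusted p = 0.0162). The related Nxph3 (log2 fold change -0.36, SE 0.094, adjusted p = 0.0492) and Igsf21, another neurexin ligand, (log2 fold change -0.58, SE 0.14, adjusted p = 0.0357) were lower too. Gpc4, a glypican that serves as a ligand of LRRTM4 and is also made by glia and progenitors, rose, with 65, 65.4 and 69.9 CPM in the knockout libraries, against 48.8, 48.7 and 58.2 CPM in WT libraries (log2 fold change 0.36, SE 0.091, adjusted p = 0.0412). Nxph1 lost its call without any 1 knockout library (highest adjusted p = 0.0686), and Ntng1 without knockout library 2 or 3 or WT library 1 or 2 (0.0629). Nxph3, Igsf21 and Gpc4 kept theirs only without WT library 3 (highest adjusted p = 0.18, 0.149 and 0.165).

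Of the 20 intracellular scaffolds that tie adhesion molecules to release sites or receptors, 2 fell and 0 rose by edgeR (1 rose by DESeq2 and 1 by limma-voom), with a median log2 fold change of -0.16. By edgeR, 2.53% of all tested genes were lower and 5.21% higher. Dlg2, the scaffold PSD-93, had 97.2, 89.2 and 97.9 CPM in the knockout libraries, against 132, 147 and 208 CPM in WT libraries (log2 fold change -0.78, SE 0.16, adjusted p = 0.0317). WT values ranged widely, and the lowest of them was above all knockout values. Ppfia4, a liprin-alpha that binds LAR-type phosphatases, was at 38, 36.6 and 33.1 CPM in the knockout libraries, against 48.5, 48.1 and 46.4 CPM in WT libraries (log2 fold change -0.41, SE 0.084, adjusted p = 0.019). The Dlg2 call was lost without WT library 2 or one of the knockout libraries (highest adjusted p = 0.123, log2 fold change -0.92 to -0.56), and that of Ppfia4 without knockout library 2 or 3 or WT library 1 or 2 (highest adjusted p = 0.0934). The other 18 scaffolds, among them the neurexin partner Cask and the inhibitory scaffold Gphn, did not pass.

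Of the 20 pan-neuronal genes, 9 fell and 0 rose by edgeR (1 rose by DESeq2), beside 2.53% of all tested genes lower and 5.21% higher by edgeR. Gap43, a growth cone protein, had 257 ± 10.2 CPM in knockout and 384 ± 37.7 CPM in WT (SD, n = 3 each) (log2 fold change -0.58, SE 0.082, adjusted p = 0.00315). Nefl, a neurofilament gene, had 50.9 ± 3.72 CPM in knockout and 107 ± 23.7 CPM in WT (SD, n = 3 each) (log2 fold change -1.07, SE 0.16, adjusted p = 0.00817). Both calls, and that of Nefm (log2 fold change -0.81, SE 0.12, adjusted p = 0.00429), held under all 6 omissions. The tubulin gene Tubb3 (log2 fold change -0.42, SE 0.086, adjusted p = 0.018), Stmn2 (log2 fold change -0.29, SE 0.062, adjusted p = 0.0223), Stmn3 (log2 fold change -0.47, SE 0.095, adjusted p = 0.018), the synaptic vesicle calcium sensor Syt1 (log2 fold change -0.47, SE 0.085, adjusted p = 0.0109), Uchl1 (log2 fold change -0.47, SE 0.088, adjusted p = 0.0125) and Thy1 (log2 fold change -0.78, SE 0.15, adjusted p = 0.0154) were lower as well. Of these 6, Syt1 lost its call without knockout library 1 or 2, Uchl1 without knockout library 1 or 3, Thy1 without knockout library 2 or 3 or WT library 2, and Stmn2, Stmn3 and Tubb3 without any 1 knockout library (Tubb3 also without WT library 1), at adjusted p values up to 0.109. Of all 20 pan-neuronal genes, 18 had a negative log2 fold change, small for Snap25 (-0.12, SE 0.07, adjusted p = 0.356) and Elavl3 (-0.065, SE 0.073, adjusted p = 0.68). Dcx (log2 fold change 0.031, SE 0.091, adjusted p = 0.886) and Elavl4 were positive. Elavl4 had 95.6, 108 and 93.3 CPM in the knockout libraries, against 81.4, 54.9 and 81.9 CPM in WT libraries (log2 fold change 0.45, SE 0.15, adjusted p = 0.134). The members' median of -0.24 was smaller in size than the -0.35 of the pan-neuronal genes, and whether the lists differ was not tested.

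Markers of several other cell types were higher in the same knockout libraries, where 5.21% of all tested genes were called higher. The 12 meningeal fibroblast markers summed to 726 to 984 CPM in the knockout libraries and 78.1 to 89.6 CPM in WT libraries, and all 12 rose. Their defining collagens Col1a1, Col1a2 and Col3a1 had 6699 to 13748 deposited counts a library in knockout and 172 to 381 in WT. Lum was at 0 in WT library 2 and Aldh1a2 at 0 in WT library 3. The 11 microglia and macrophage markers summed to 95.2 to 118 CPM in the knockout libraries and 36.2 to 42.7 CPM in WT libraries (8 rose), and the 10 endothelial markers to 443 to 542 CPM in the knockout libraries and 262 to 297 CPM in WT libraries (7 rose). The 10 markers of dividing cells summed to 715 to 734 CPM in the knockout libraries and 414 to 522 CPM in WT libraries, and 9 rose. The 10 radial glia markers summed to 1617 to 1779 CPM in the knockout libraries and 1576 to 1664 CPM in WT libraries, with ranges that overlapped. Of these, Pax6 and Nes rose, 8 did not pass, 4 had a negative log2 fold change, and the median was 0.10. Choroid plexus markers, 9 in the list and 6 tested, summed to 33.4 to 519 CPM in the knockout libraries and 6.53 to 7.96 CPM in WT libraries, with knockout library 3 the highest. Of these markers, 2 rose, Aqp1 and Enpp2. In knockout library 1, Enpp2 gave 23.8 and Aqp1 6.8 of the 33.4 CPM. Ttr was at 1.91, 35.7 and 452 CPM in knockout libraries 1, 2 and 3. Folr1 was at 0 in knockout library 1 and in all WT libraries. The part of any of these cells in the members' values was not tested. The lower values of members were present in each knockout library: over the 39 members, the median difference from the WT mean was -0.24, -0.23 and -0.20 log2 units in knockout libraries 1, 2 and 3, against 0.092, -0.078 and -0.047 in WT libraries 1, 2 and 3.

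The members lie on 18 chromosomes, 5 of them on X. Across the 39 genes, which are not independent replicates, Spearman's rho of the log2 fold change was 0.17 with mean CPM, 0.022 with gene span and 0.20 with exon length. Annotated exons overlap a gene on the opposite strand in 14 members and on the same strand in 2, and read strand is not stated, so such counts are less certain. For the called genes Lrfn2 and Tenm1 the overlapping genes were at 0 counts. Summed over all 6 libraries, the overlapping genes held 3338 (Gm14964) and 151 (Slc22a12) deposited counts at Nrxn2, 179 (Gm16054) at Adgrl3 and 1028 (Gm19744) at Tenm3. Lrrtm2 shares 95 exon bases with Ctnna1 on the other strand, and Ctnna1 rose (log2 fold change 0.92, SE 0.12, adjusted p = 0.00197). Cadm3 shares 361 exon bases with Ackr1 on the same strand, which had 1369, 88 and 945 counts in knockout libraries 1, 2 and 3, against 78, 89 and 70 in WT libraries and did not pass (adjusted p = 0.178, log2 fold change 3.24, SE 1.06). Cadm3 was highest among the knockout libraries in library 2, where Ackr1 was at the WT level, and was below all WT libraries there too. The part of the overlap in the Cadm3 value was not tested.

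The count of members that fell depended on which libraries entered. With knockout library 1, 2 or 3 left out, 3, 1 and 2 members were lower. Without WT library 1, 2 or 3, it was 1, 5 and 12, of which 1, 4 and 10 were among the 12. The shares of all tested genes called lower moved as well, from 0.665% without knockout library 3 to 4.62% without WT library 3, beside 5.13% and 30.8% of the members. All 13 called members kept their direction in the 6 omissions. At an unadjusted p under 0.05, 13 to 20 members were lower and 1 or 2 higher in each omission, and 18 were lower and 2 higher with all libraries. Of all tested genes, 6.73% to 11.7% were lower and 9.81% to 14.1% higher by that measure in the omissions, and 9.71% were lower and 12.5% higher with all libraries. With knockout libraries 2 and 3 both left out, 0 members passed by edgeR (6 lower and 1 higher at an unadjusted p under 0.05, beside 3.77% of all tested genes lower and 6.04% higher), where the lone knockout library is taken to vary as the WT libraries do.

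**Figure D5:**
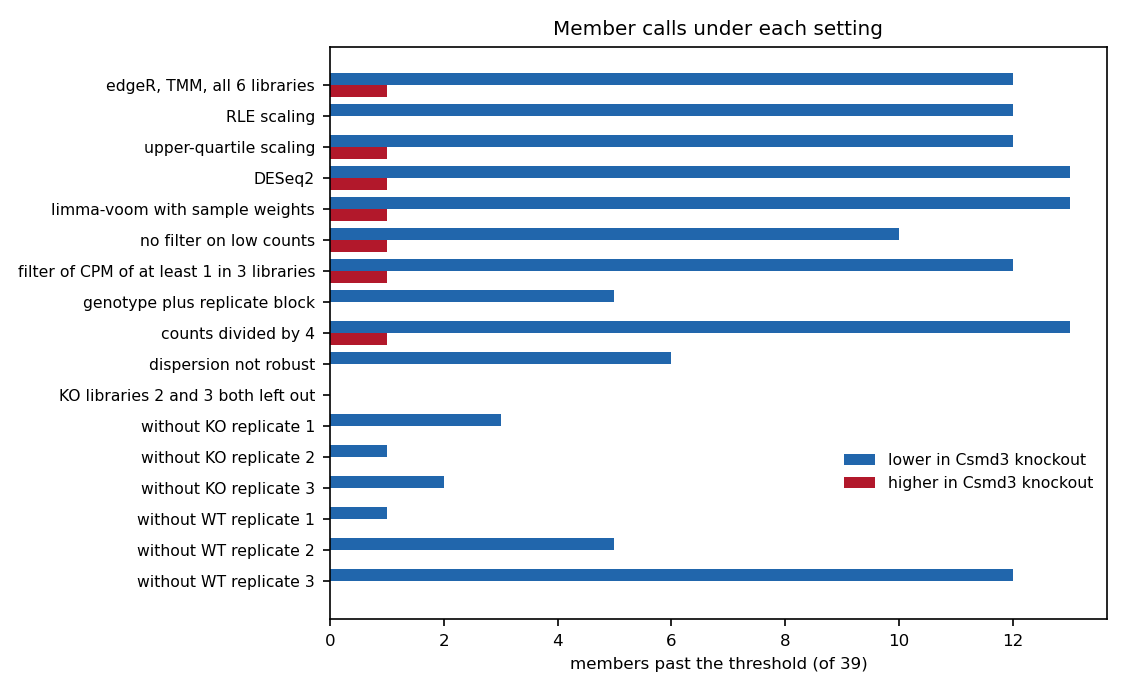
Number of the 39 members past the threshold under each setting, with lower calls in blue and higher calls in red; KO is Csmd3 knockout. Other scalings, filters and tools gave 10 to 13 lower members, the replicate block 5, the fit that was not robust 6, and single-library omissions 1 to 12.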

How the data were processed

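RNA sequencing of cortex at embryonic day 18 gave 1 deposited table, whose header names genes and libraries. Programs listed by the submitters' processing notes are HISAT2 2.0.5, StringTie 1.3.4, Trim Galore 0.4.4 and FastQC 0.11.9, with build mm10. The sources used here do not give how reads were counted, nor the annotation or strand setting. The authors deposited whole numbers per gene with no normalization stated per the file headers, which were taken as estimated counts, since low values pile up at multiples of 4 (1298 genes at 4 in WT library 1, against 492 at 3). No rounding was needed. Of 55401 rows, 55141 received a GENCODE M21 name and 54349 had an identical versioned identifier. Groups follow the genotype labels. Genes were filtered by filterByExpr, scaled by TMM and tested with edgeR 4.0.16 (quasi-likelihood F-test, robust, R 4.3.3). The fit was tried on simulated counts with 200 genes changed 2-fold. That change is larger than in any member, so recovery of smaller changes was not tested. The p-values of this F-test were adjusted by Benjamini-Hochberg over 19844 genes, threshold 0.05. Every adjusted p is from this test unless another tool is named. Log2 fold changes are knockout minus WT, and the SE is the absolute value divided by the square root of F. Log2 CPM used a prior count of 2. Coordinates count from 1.

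Members and lists were chosen with earlier results of these data known. All members are accounted for; from the partner and pan-neuronal lists, genes past the threshold are named. Cask, Gphn, C1ql2, the pan-neuronal genes that did not pass, single choroid plexus, microglia and macrophage markers and the overlapping genes were named after their values were seen. Tried as alternatives were a replicate block, 2 other filters, counts divided by 4, a dispersion fit that was not robust, libraries left out, upper-quartile and RLE scaling, limma-voom with sample weights (limma 3.58.1) and DESeq2 1.42.0.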

Additional observations from a re-analysis of the deposited data

How the results depend on the processing

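With each library left out in turn, the members lower ranged from 1 to 12 and those higher were 0 throughout, the members' median log2 fold change from -0.15 (without WT library 1) to -0.26, all tested genes lower from 137 to 956 and higher from 472 to 1402, and the 3 lists of partners, scaffolds and pan-neuronal genes together from 5 to 28. By list, secreted and membrane partners ranged from 1 to 10 lower and 0 to 1 higher, scaffolds from 0 to 4 lower and 0 to 1 higher, and pan-neuronal genes lower from 4 to 12.

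With knockout libraries 2 and 3 both left out, 0 members were lower and 0 higher, 43 tested genes were lower and 262 higher, and 0 genes of the lists passed (0 partners lower, 0 higher, 0 scaffolds and 0 pan-neuronal genes lower). That fit has fewer samples. A fit that was not robust called 6 members lower, 0 higher and 0 partners higher, and lost Slitrk5, Lrfn4, Lrfn5, Clstn3, Adgrl3, Tenm1 and Nlgn2. RLE scaling called 0 members higher. DESeq2 called 792 tested genes lower, 12 partners lower, 1 scaffold higher and 1 pan-neuronal gene higher. Limma-voom called 10 partners and 4 scaffolds lower and 1 scaffold higher, and counts divided by 4 called 10 partners lower. The causes of these shifts were not tested.

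Replicate numbers did not pair the libraries: deviations of same-numbered libraries correlated at 0.028, -0.0026 and 0.0016, all under 0.1. Knockout libraries 1 and 3 correlated best with the WT library of their own number, and knockout library 2 with WT library 3 (0.029). With the replicate number as a block, 5 members were lower (4 of them among the 12) and 0 higher, 255 tested genes were lower and 686 higher, and 0 partners were higher. Under RLE and upper-quartile scaling and with DESeq2, the 12 members that fell all stayed called. No called member and no named partner, scaffold or pan-neuronal gene past the threshold changed direction in any alternative. Of the 26 members not called, 10 changed sign in at least 1 alternative. Il1rapl1 rests on the fewest counts of the members, and whether depth limited its test was not tested.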

Other observations

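Some members varied more between libraries of a group than between genotypes. Lrrtm4 was low in knockout library 1 and WT libraries 2 and 3, and Cadm2 was lowest in WT library 2 and next lowest in knockout library 1. WT library 2 was also the lowest library for Adgrl2 and Tenm4, at 231 and 212 CPM. These genes were picked after their values were seen. Cbln4, a secreted cerebellin of some cortical neurons, had 1.34, 1.85 and 2.09 CPM in the knockout libraries, against 7.72, 4.36 and 2.29 CPM in WT libraries and did not pass (log2 fold change -1.45, SE 0.42, adjusted p = 0.0831).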
